A study of Bos taurus with 43 samples.

Results

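FABP3, heart-type fatty acid-binding protein, is a small cytosolic carrier of long-chain fatty acids. Its transcript level in bovine uterine luminal cells differed widely between cows, and the 100 genes described here were those whose levels followed it most closely. They were chosen by a rule that used the measured values. Read counts were expressed as log2(CPM + 1), where CPM is the count scaled to a common library total, genes with a mean CPM of at least 5 were kept, and the 100 genes of highest Pearson correlation (r) with FABP3 over 43 cows were taken. They were 100 of the 11919 genes kept beside FABP3, out of 27570 gene identifiers in all. They are called the FABP3 module, or its members, below. FABP3 (ENSBTAG00000016819) is named as in that rule. The other identifiers could not be paired with symbols, so no function, position or sequence is given for them, and the cell type of the samples could not be checked against marker genes.

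The samples were collected from the uterine lumen of 43 multiparous Angus x Brahman cows by cytology brush on day 4 after the last GnRH dose of an estrus synchronization. All cows had received an intravaginal progesterone (P4) device with GnRH, then PGF2alpha at its removal and a further GnRH dose, and only cows seen in estrus were used. After sampling, on day 7, 1 embryo produced in vitro was transferred to each cow, and pregnancy was scored around day 30. There were 25 pregnant cows (14 of block 2 and 11 of block 1) and 18 nonpregnant cows (8 of block 2 and 10 of block 1), where block is the round of synchronization. Blood P4 of day 4 ranged from 0.27 to 1.88 with a median of 0.72, in a unit the labels do not state. Libraries held 11159501 to 23572549 counts and 16705 to 18842 detected genes. The counts of a library that fell on its 10 most abundant genes were 3.70% to 11.3%, and in 7 libraries over 8%.

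P4 is secreted by the corpus luteum and acts on the endometrium through nuclear receptors that regulate transcription. In the days after ovulation it prepares the endometrium to nourish and receive an embryo. Lipid uptake and handling by the epithelium belong to that preparation, since lipids reach the embryo through uterine secretions. A brush takes a mixture of luminal cells, and in such bulk samples fewer cells of a type and less RNA per cell cannot be told apart.

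FABP3 itself had 69 to 1683 counts per library, and its level ranged from 4.50 to 82.1 CPM with a median of 11.03 CPM. Among the 14 cows of lowest P4 (0.27 to 0.51), FABP3 had a lowest, median and highest level of 4.50, 6.61 and 12.7 CPM. Among the 15 cows of middle P4 (0.52 to 0.91) the values were 5.07, 14.3 and 44.9 CPM. Among the 14 cows of highest P4 (0.92 to 1.88) they were 4.68, 21.4 and 82.1 CPM. The medians rose over the P4 groups while the lowest values stayed alike, so the groups overlapped. FABP3 rose 2.21-fold per doubling of P4 (log2 slope 1.15 ± 0.17, SE, edgeR adjusted p = 0.00034, n = 43), and this slope is a description, because FABP3 was picked as the starting gene for its relation to P4 in these same cows.

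The r of the members with FABP3 ranged from 0.659 to 0.846 with a median of 0.718. Over all 11919 genes the median r was -0.10, and 5% to 95% of them lay between -0.46 and 0.47. The members nearest the limit had r of 0.659 and 0.660, and the genes just outside it had 0.657 and 0.656, so the limit of 100 fell on no gap. At an r of 0.7 or more there were 65 genes, against 11 genes at -0.7 or less. The most negative gene, ENSBTAG00000052989, had an r of -0.80. Its lowest, median and highest levels were 8.26, 13.9 and 17.01 CPM in the cows of lowest P4, 3.26, 12.2 and 18.1 CPM in those of middle P4, and 3.81, 7.14 and 16.4 CPM in those of highest P4. Its medians thus fell where those of FABP3 rose, and its P4 slope did not pass the threshold (log2 slope -0.33 ± 0.10, SE, edgeR adjusted p = 0.0974, n = 43).

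**Figure D1:**
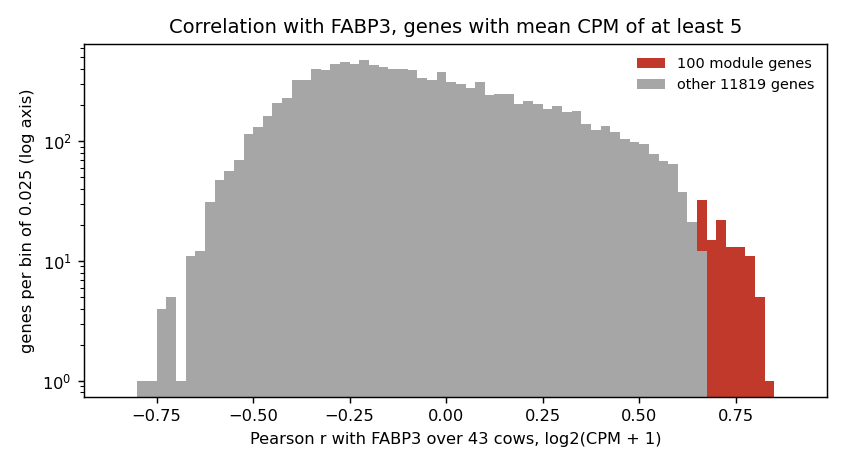
Histogram of the Pearson r with FABP3 of 11919 genes over 43 cows, on a log axis of genes per bin, with the 100 module genes in red stacked on the other genes in grey. The module is the right-hand end of a continuous distribution, from an r of 0.659 upward, and no gap separates it from the rest.

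The gene of highest r, ENSBTAG00000008635, had an r of 0.846 and an SD over cows of 0.98 in log2(CPM + 1), against 0.56 in the median member. Its lowest, median and highest levels were 169, 262 and 337 CPM in the 14 cows of lowest P4, 100, 320 and 1515 CPM in the 15 cows of middle P4, and 197, 579 and 1821 CPM in the 14 cows of highest P4. No cow of low P4 went above 337 CPM, whereas the highest cow of either other P4 group was several times above that. Its level rose 1.73-fold per doubling of FABP3. ENSBTAG00000019509, second by r at 0.807, covered a narrower range, with medians of 51.1, 59.1 and 73.2 CPM from the lowest to the highest P4 group. ENSBTAG00000004855 had the highest mean CPM of the members, 985 CPM, with CPM not corrected for gene length. Its medians were 626, 882 and 1026 CPM over the same groups.

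Most members moved less than FABP3. The mean level of a member ranged from 5.06 to 985 CPM with a median of 64.1 CPM. In 6 members the mean was under 10 CPM and in 33 it was at least 100 CPM. Per doubling of FABP3 a member rose by 1.31-fold in the median, with a range of 1.09-fold to 2.81-fold, and 5 members rose by at least 2-fold. These slopes are part of what chose the members. The highest cow exceeded the lowest by 4.99-fold in the median member, on CPM + 1, and 10 members were under 1 CPM in at least 1 cow. Together the members took 0.630% to 2.16% of the counts of a library.

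The members also followed one another. Over the 43 cows the r between members had a median of 0.672, ranged from 0.158 to 0.946, and was at least 0.5 in 89.5% of the 4950 pairs. Over all pairs of kept genes the median was 0.059, and 10.3% of pairs reached 0.5. Genes chosen for a high r with the same gene tend to correlate with each other, so these values describe the module and are no test. A single component held 66.9% of the variance of the z-scored members, and the next held 7.39%. Among the components of all kept genes, the members followed the fourth, which held 6.28% of the variance, with a median r of 0.68 (FABP3 itself 0.77), and the first, which held 27.7%, with a median r of 0.43 (FABP3 0.33). Hierarchical clustering cut into 3 groups left 81 members in 1 group and put 10 and 9 in the others.

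**Figure D2:**
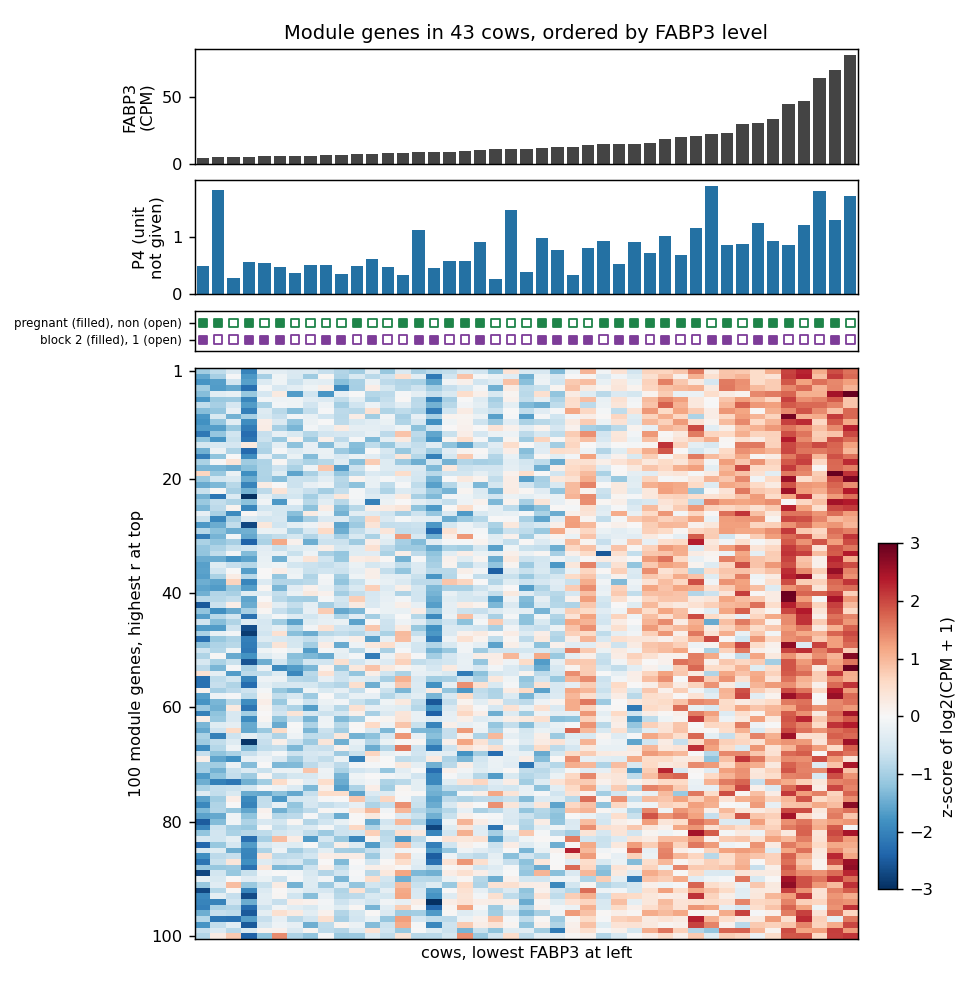
Heatmap of the 100 module genes (z-score of log2(CPM + 1), highest r at the top) in 43 cows ordered from low to high FABP3, under bars of FABP3 in CPM and of P4, with marks for outcome and block. The members are high together in the cows at the right, and 1 cow of high P4 (1.81) stands at the left with 4.68 CPM of FABP3 and low members.

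The change over cows was largely shared by the whole module. In 14 cows at least 84 of the 100 members lay above their own median, and in 11 cows at most 14 did. The mean z-score of the members was highest in pregnant replicate 18, at 1.77, with all 100 members above their median, a P4 of 0.86 and 44.9 CPM of FABP3. Pregnant replicate 7 had a mean z-score of 1.65 at a P4 of 1.28, and nonpregnant replicate 13 had 1.64 at a P4 of 1.71. The lowest mean z-scores were -1.56 in pregnant replicate 4, -1.37 in nonpregnant replicate 3 and -1.30 in pregnant replicate 14. High and low cows were thus found in both outcomes. The 10 most abundant genes took 9.95%, 11.01% and 11.3% of these last 3 libraries, and all 3 are among the 7 libraries over 8%.

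**Figure D3:**
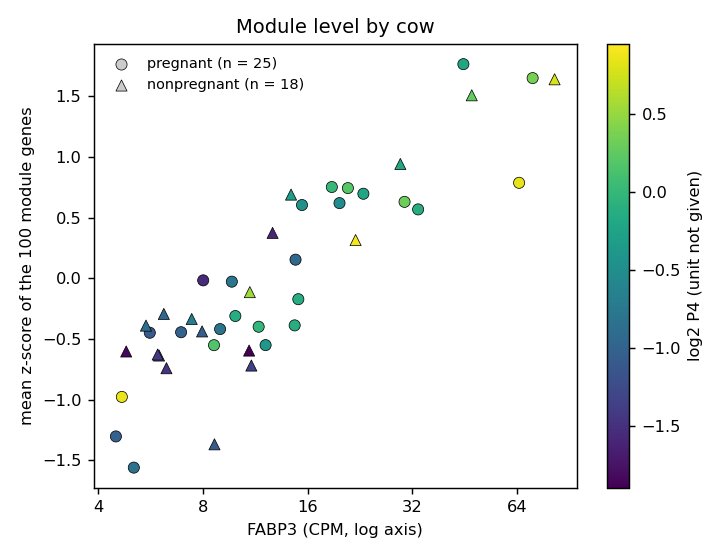
Mean z-score of the 100 module genes against FABP3 in CPM (log axis), 1 point per cow, with circles for 25 pregnant and triangles for 18 nonpregnant cows and colour for log2 P4. The mean z-score runs from -1.56 to 1.77 and is above 1.5 in 4 cows, of both outcomes, with 44.9 to 82.1 CPM of FABP3, and points of high P4 lie at both ends.

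Some measures of the libraries moved with the members, and their part in the results was not tested. The r between a member and the library share of its 10 most abundant genes had a median of -0.36 and was below 0 in all but 3 members, against a median of -0.18 over all kept genes. The r with the number of detected genes had a median of -0.15, against 0.22 over all kept genes. With total counts the median was -0.05, against 0.02. With the TMM factor, which scales a library for its make-up, the median was -0.18, against 0.28, and FABP3 itself had -0.33. The members with the strongest link to the 10 most abundant genes belonged to the group of 81, with a median r of -0.39, whereas the groups of 10 and 9 had -0.12 and -0.16. Without the 7 libraries over 8% the members' r with FABP3 had a median of 0.734, and with detected genes and total counts held constant it was 0.723.

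The relation to FABP3 was then read in parts of the herd. Over the 22 cows of block 2 the r of the members had a median of 0.703 (0.481 to 0.909), and over the 21 cows of block 1 it had a median of 0.750 (0.612 to 0.896). In 67 members the r was lower in block 2 than in block 1. Over pregnant cows the median was 0.733 (0.545 to 0.882), and over nonpregnant cows it was 0.715 (0.470 to 0.892). No member had a negative r in any of these parts, all of which took part in the choice. The cows of most extreme FABP3, nonpregnant replicate 13 with 82.1 CPM and pregnant replicate 7 with 71.0 CPM, also took part in the choice, and without them the median was 0.676 (0.550 to 0.818). When the rule was applied again without these 2 cows, 84 of the 100 members were chosen again, at a limit of 0.616. With Spearman's rank correlation the median was 0.698 (0.483 to 0.841).

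Choosing the genes in one block and reading them in the other separates the choice from the measurement. The 100 genes of highest r in block 1 alone had a median r of 0.640 in block 2, with a range of -0.23 to 0.909. Of them 80 reached 0.5 in block 2, against 8.37% of all kept genes, and 99 were above 0. The 100 genes of highest r in block 2 alone had a median r of 0.618 in block 1, with a range of -0.30 to 0.858, and 66 reached 0.5, against 4.20% of all kept genes. Of the 100 module members, 52 were among the genes chosen in block 2 and 72 among those chosen in block 1. The genes that follow FABP3 in one round of synchronization therefore mostly followed it in the other, while the exact list of 100 differed.

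**Figure D4:**
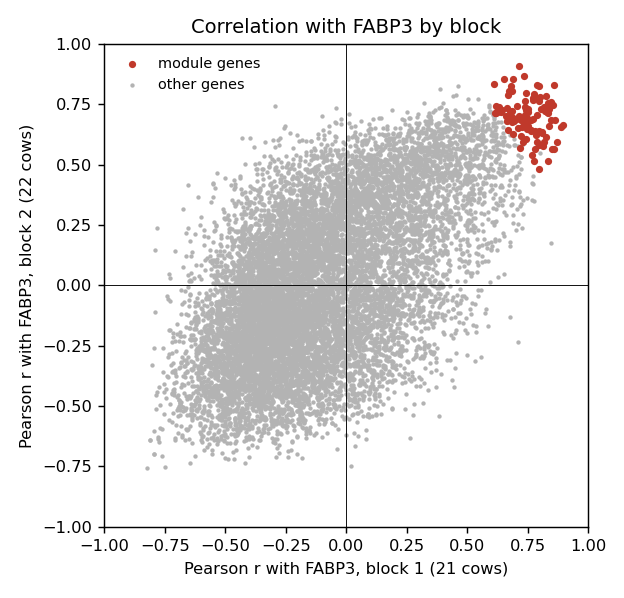
Pearson r with FABP3 in the 22 cows of block 2 (vertical axis) against the 21 cows of block 1 (horizontal axis), 1 point per gene, with module genes in red and other kept genes in grey. All members lie at the upper right, at 0.481 or more in block 2 and 0.612 or more in block 1, and grey genes border them without a gap.

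The members were higher in cows of higher P4. The counts given here are largely set by the choice, because FABP3 was picked for its relation to P4 in these same cows. The r with log2 P4 was above 0 in all 100 members and in 4734 of the 11919 kept genes. The median of the cows of highest P4 exceeded that of the cows of lowest P4 in all 100 members, by 1.47-fold in the median member (1.09-fold to 5.73-fold) and by at least 2-fold in 19. The cows of middle P4 exceeded those of lowest P4 in 99 members, by 1.29-fold in the median member. The cows of highest P4 exceeded those of middle P4 in 85 members, by 1.13-fold. In the median member the step between low and middle P4 was thus the larger one, a difference not tested, and 84 members rose at both steps. The share of library counts taken by the module had medians of 0.875%, 1.14% and 1.36% from the lowest to the highest P4 group.

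In the edgeR quasi-likelihood fit of log2 P4 with block over 15206 genes, all 100 members were tested, all had a positive slope, and 26 passed an adjusted p of 0.05 (Benjamini-Hochberg over all genes). The rate of such calls was 0.322% of all genes tested, 49 genes in number, so the module held 53.1% of the genes called higher with P4. At an unadjusted p under 0.05 there were 99 members, against 8.97% of all genes called higher with P4. The median slope of the members was 0.37 (0.14 to 1.15) in log2 units per doubling of P4, against -0.01 over all genes, of which 46.1% had a positive slope. Neither count is independent of the choice of the members, because the starting gene was chosen for its P4 slope in these cows. The 26 members that passed had a median r with FABP3 of 0.740, and the 74 that did not had a median of 0.711. With P4 and block held constant the order was the other way, with medians of 0.644 and 0.662. FABP3 itself had an r of 0.63 with log2 P4. Splitting the members by their P4 slope therefore favours both orders, and nothing is read from them.

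ENSBTAG00000008635, whose levels are given above, rose 1.85-fold per doubling of P4 (log2 slope 0.89 ± 0.17, SE, edgeR adjusted p = 0.0148, n = 43). ENSBTAG00000004256, the member of smallest p, had lowest, median and highest levels of 123, 181 and 266 CPM in the cows of lowest P4, 161, 252 and 743 CPM in those of middle P4, and 170, 291 and 549 CPM in those of highest P4. Its median rose at both steps, and its highest single cow was one of middle P4, pregnant replicate 18. Its slope was smaller and more precise (0.50 ± 0.10, SE, edgeR adjusted p = 0.0148, n = 43). Its r with FABP3 was 0.909 over block 2 and 0.716 over block 1. Both genes were chosen through FABP3, itself picked for P4 in these cows. Their P4 slopes and adjusted p are therefore descriptions and no independent support.

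The count of 26 depended on the tool and on single cows, while all member slopes stayed positive over these. That direction was largely set by the choice of the members and is no independent support. DESeq2 called 58 members, all higher with P4, against 1.2% of all genes called higher, and limma voom with sample weights called 0 of the members and 0 of all genes, and an unadjusted p under 0.05 in 84 members and 12.9% of all genes. Without the 7 libraries over 8%, edgeR called 1 member, with an unadjusted p under 0.05 in 96 members and 14.2% of all genes and a median slope of 0.37. Leaving out 1 cow at a time gave 6 to 80 called members, with 6 without nonpregnant replicate 13, 7 without pregnant replicate 7 and 80 without pregnant replicate 13. Calls over the whole table moved as well, at 25, 23 and 488 in these 3 fits, against 78 with all cows. Within block 2, block 1, pregnant cows and nonpregnant cows, edgeR called 0 members. All 100 slopes were positive in each, with medians of 0.37, 0.38, 0.37 and 0.41. Of all 15206 genes, 7102, 7193, 7586 and 6966 had a positive slope. These cows took part in the choice, so the shared sign is no separate test. In these fits, which hold fewer cows, 55, 84, 42 and 88 members had an unadjusted p under 0.05. Over all genes the shares were 22.4%, 6.08%, 4.86% and 13.5%, so the background itself differed widely between these fits.

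**Figure D5:**
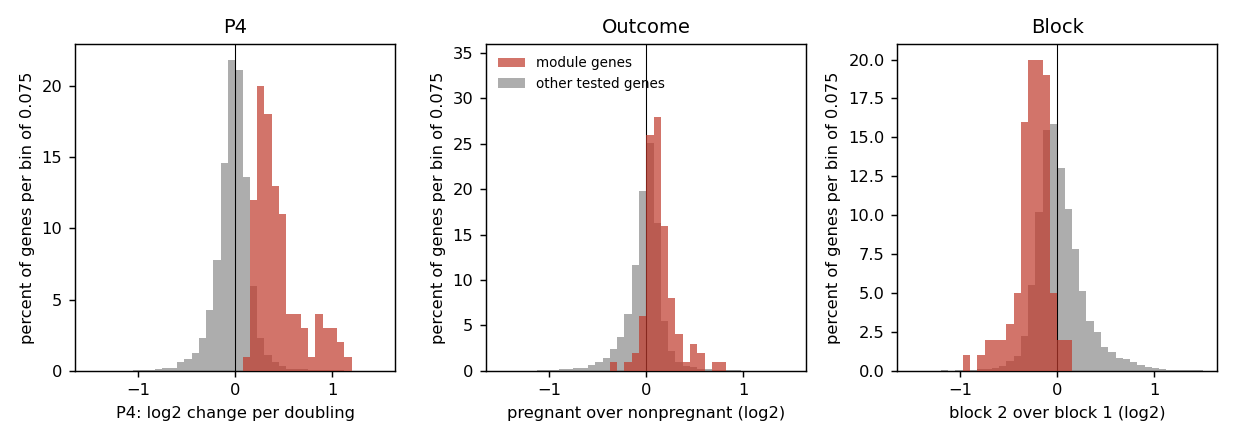
Histograms of the edgeR log2 change of 100 module genes (red) and of the other tested genes (grey), as a percent of genes per bin of 0.075, for a doubling of P4, for pregnant over nonpregnant cows and for block 2 over block 1. Member slopes on P4 all lie above 0, at 0.14 to 1.15, those for outcome lean above 0 and those for block lean below 0, and 5, 19 and 14 genes that are no members lie beyond the axis limits of 1.5.

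When the log2(CPM + 1) of FABP3 was added to the P4 model, 0 members passed the threshold by edgeR, 4 had an unadjusted p under 0.05, against 4.33% of all genes, and 29 of 100 slopes remained positive with a median of -0.04. The members were chosen for their fit to FABP3 in these same cows, so a loss of their P4 slope in this model is built into the rule, and nothing is read from it. In the other direction, with log2 P4 and block held constant, the r of the members with FABP3 had a median of 0.658 (0.485 to 0.778), against 0.718 without. These r values too were largely set by the choice.

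No member differed past the threshold on day 4 between cows that became pregnant and cows that did not. FABP3 had a lowest, median and highest level of 4.50, 14.7 and 71.0 CPM in pregnant cows and 4.82, 9.76 and 82.1 CPM in nonpregnant cows. The mean z-score of the members ran from -1.56 to 1.77 in pregnant cows and from -1.37 to 1.64 in nonpregnant cows, so the groups overlapped over nearly the whole range. With block in the model, 0 members and 0% of the 15206 genes passed the threshold by edgeR, and 1 member had an unadjusted p under 0.05, against 2.99% of all genes. DESeq2 and limma voom also called 0 members, with an unadjusted p under 0.05 in 2 and 6, near the 3.56% and 4.02% of all genes under these tools. The log2 difference of pregnant over nonpregnant cows had a median of 0.12 (-0.34 to 0.81) over the members. It was positive in 90, against 51.9% of all genes. Because the members follow one another, these 90 are not separate observations. The 95% interval of the difference lay within 1.5-fold in either direction in 67 members and within 2-fold in 86. Larger differences were thus outside the interval for most members. The interval included 0 in 99 members, and its median half-width was 0.36 on the log2 scale.

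The member of smallest p for outcome was ENSBTAG00000006478, with 36.7 ± 8.73 CPM in pregnant cows (SD, n = 25) and 31.7 ± 9.45 CPM in nonpregnant cows (SD, n = 18). Its levels ran from 19.1 to 55.6 CPM in pregnant cows and from 15.3 to 54.3 CPM in nonpregnant cows, which overlapped almost fully. The log2 difference was 0.26 ± 0.13 (SE, edgeR adjusted p = 1.00). P4 was 1.35-fold higher in pregnant than in nonpregnant cows on the geometric scale, a difference that did not pass the threshold (two-sided permutation p = 0.0663 with 100000 resamples within blocks), although it did on ranks (p = 0.0449, by the same permutation test). With log2 P4 added to the outcome model, 42 of the 100 members were higher in pregnant cows and the median difference was -0.02. The interaction of P4 with outcome was called by edgeR in 0 members and in 0% of all genes. At an unadjusted p under 0.05 it was found in 0 members and 5.73% of all genes. DESeq2 and limma voom called 0 members for it, with 0 and 1 at an unadjusted p under 0.05, against 6.81% and 11.3% of all genes.

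Between the rounds of synchronization the module leaned lower in block 2. The log2 difference of block 2 over block 1 had a median of -0.24 (-0.97 to 0.12) over the members. It was negative in 96 and positive in 4, whereas 47.9% of all genes were positive, with a median of -0.01. The members follow one another, so their shared sign does not count as separate observations. By edgeR 0 members passed the threshold, against 0.414% of all genes. At an unadjusted p under 0.05 there were 14 members, all lower in block 2. Over all genes the share was 14.2% in either direction, and 6.19% for genes lower in block 2. DESeq2 and limma voom called 0 members, with an unadjusted p under 0.05 in 20 and 1. Over all genes DESeq2 called 225 and limma voom 834, and the shares at an unadjusted p under 0.05 were 15.7% and 19.5%. The 95% interval lay within 2-fold in either direction in 82 members. ENSBTAG00000018138, the member of smallest p for block, had 15.7 ± 5.30 CPM in block 2 (SD, n = 22) and 19.9 ± 7.82 CPM in block 1 (SD, n = 21). Its levels ran from 8.03 to 35.4 CPM in block 2 and from 9.98 to 39.1 CPM in block 1, and the log2 difference was -0.41 ± 0.15 (SE, edgeR adjusted p = 0.199).

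The lean towards block 1 was smaller under some alternatives. Detected genes had a median of 18347 in block 2 and 18051 in block 1. With their number as a covariate the median difference of the members was -0.10 and 21 were higher in block 2. Without the 7 libraries over 8% it was -0.08 and 28 were higher in block 2, and with limma voom and sample weights it was -0.09 and 27 were higher. The part of library make-up in the difference was not tested.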

How the data were processed

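RNA of each cow was sequenced as 1 poly-A library, per the labels' protocols, and each cow is a separate animal. The authors deposited 1 table per cow of raw read counts for 27570 Ensembl identifiers, per the file contents. Per the submitters' processing notes, HISAT2 and HTSeq were used on build ARS-UCD1.2, with FastQC 0.11.7 and Trim Galore 0.4.4. The order of these tools, how strand and shared reads were handled, and the annotation are not given in the sources used. Overlapping or near-identical genes could therefore share or lose counts. RNA integrity numbers were 5.6 to 8.7 (Bioanalyzer) and 6.9 to 9.4 (Qubit), not given per cow, so RNA quality could not be set beside the module.

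Correlations used CPM over the library total and log2(CPM + 1). Tests used edgeR 4.0.16 (R 4.3.3, TMM factors of 0.814 to 1.14, robust quasi-likelihood F-test, filterByExpr with a minimum count of 10 and a smallest group of 18) on all 15206 genes that passed, with p-values adjusted by Benjamini-Hochberg and called under 0.05. All 100 members passed that filter. P4 (log2) was fitted with block, outcome and block were fitted together, and the interaction with its main terms. The SE was obtained as the size of the log2 change over the root of F. DESeq2 1.42.0 and limma 3.58.1 voom were alternatives. Intervals are those of the fitted log2 change of a gene, whose SE takes in the variation between cows. They do not give the range of single cows. The code was tested on simulated data.

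The members, lists and tests were chosen with earlier results of these data known. The reference table used here (ARS-UCD2.0) matched 0 identifiers, so 24 gene lists and 13 promoter motifs were not used, and genes were named by identifier, at most 2 per direction and comparison: those of highest and lowest r, of smallest p for P4, outcome and block, and of highest mean CPM. The P4 groups are the cows ranked by P4 in 3 parts.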

Additional observations from a re-analysis of the deposited data

How the results depend on the processing

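Of the 100 members, 52 were chosen again in block 2 cows alone and 60 in nonpregnant cows alone. Under every other alternative for the choice run here, at least 70 were chosen again, 86 to 99 of them when 1 cow was left out. The share of all genes called in either direction is given in parentheses. The 26 members called for P4 by edgeR (0.513%) became 58 with DESeq2 (1.87%) and 0 with limma voom and sample weights (0%). There were 8 with P4 on the linear scale (0.171%) and 6 with block and outcome as covariates (0.0921%). When the 7 libraries over 8% were left out there was 1 (0.046%), and with FABP3 as a covariate 0 (0%). Fits within block 2, block 1, pregnant cows or nonpregnant cows, added after the data were seen, called 0 each. RLE factors gave 26 (0.5%), no low-count filter 38 (0.783%) and the rank of P4 38 (0.815%). Leaving out 1 cow gave 6 to 80. The count was 41 to 80 (0.756% to 3.21%) without pregnant replicates 12, 13 or 19 or nonpregnant replicates 5 or 16. It was at most 17 (0.151% to 0.355%) without pregnant replicates 7, 10, 11, 14, 16 or 23 or nonpregnant replicates 1, 3, 6, 7, 9, 10, 13, 14 or 15. Calls over all genes thus moved together with those of the members. The sign of the slopes is largely set by the choice of the members. All 100 stayed positive in each alternative except that with FABP3 as a covariate. There ENSBTAG00000019509 had a slope of -0.043 (adjusted p = 0.999), against 0.40 by the model without it (adjusted p = 0.0441). The call of this gene was lost in 33 of 56 alternatives, with adjusted p between 0.00723 and 0.999 over all of them. The causes of these changes were not tested, and the fits on part of the herd also held fewer cows.

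For outcome, block and the interaction, 0 members were called under every alternative run. Over all genes, 6 to 834 were called for block, at most 5 for outcome and at most 7 for the interaction. P4 by outcome differed by 7.84 ranks, higher in pregnant cows (permutation p = 0.0449), against p = 0.0663 on the log2 scale and p = 0.260 on the linear scale. No paired analysis was possible because every animal gave 1 sample and a replicate number is no more than a name. The count of 43 cows and the low counts of FABP3 in some libraries, from 69 upward, limit the precision of r.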

Other observations

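The module members had a median r of 0.672 between them, and the 100 genes of lowest r with FABP3 had 0.514. Both values are raised by the choice, to a degree that was not tested. The r with FABP3, by which both sets were chosen, had a median of 0.718 in the members and -0.61 in the lowest genes. The r between a member and one of these lowest genes lay between -0.88 and -0.04 with a median of -0.50, so that no pair reached 0. The choice favours such negative values as well.

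Some cows stood away from the relation between P4 and the module. Pregnant replicate 13 had the second highest P4 of the herd, 1.81, with a FABP3 level of 4.68 CPM, a mean z-score of the members of -0.98 and 4 of 100 members above their median. Nonpregnant replicate 16 had a P4 of 1.46, 10.9 CPM of FABP3 and a mean z-score of -0.11, and pregnant replicate 19 had a P4 of 1.12, 8.62 CPM and -0.55. In contrast, nonpregnant replicate 5 had a P4 of 0.33, 12.7 CPM of FABP3 and a mean z-score of 0.37, with 75 members above their median. Pregnant replicate 16 followed the relation, with a P4 of 1.79, 64.9 CPM of FABP3 and a mean z-score of 0.79. In this cow 96 of 100 members lay above their median, and its 10 most abundant genes took 9.75% of the library.

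The slope of the members on P4 among pregnant cows was spread around a median of 0.37 and among nonpregnant cows around 0.41, with 0 members called by edgeR in either group alone and 42 and 88 at an unadjusted p under 0.05, where all genes had 4.86% and 13.5%. The interaction of P4 with outcome was called in 0 members over all cows.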
